A study of Mus musculus with 6 samples.

Results

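Wnt signaling genes were followed in differentiating DM1 myoblasts with and without miR-322/-503 overexpression. The 10 genes described here were the ligands Wnt4, Wnt5a, Wnt9a and Wnt10a, the secreted antagonists Sfrp1, Sfrp2, Dkk2 and Dkk3, and the pathway targets Axin2 and Lef1. They were taken by gene name from the per-library tables and joined by gene identifier to the table of 55421 genes. Of the 10 genes, 9 had enough counts to be tested beside 18140 genes in all, and Wnt5a had not. Wnt4 was upregulated past both cut-offs, Wnt9a, Sfrp1, Sfrp2 and Dkk3 were downregulated past both, and Axin2, Lef1 and Wnt10a rose by smaller amounts.

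RNA-seq was performed on total RNA of C2C12 cells, a mouse myoblast line that forms myotubes in low serum, on day 4 of differentiation. All 6 libraries came from DM1 myoblasts, which are C2C12 cells stably transfected with a plasmid that places 200 CTG repeats behind the GFP coding sequence, so that expanded CUG RNA is made. The 3 control libraries additionally carried the empty pLL4.0 vector, which confers puromycin resistance, and the 3 miR-322/-503 libraries carried the same vector with the miR-322/-503 fragment. The comparison asked how gene expression in differentiating DM1 myoblasts changed with these microRNAs. Both groups were drug-selected stable derivatives, so a difference between the lines and an effect of the microRNAs cannot be told apart. The paper's methods give 3 biological and 3 technical replicates for its assays in general. The labels do not say whether the 3 libraries of a group came from separate cultures, and p-values measure the spread between these libraries.

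Wnt proteins are lipid-modified secreted ligands that bind Frizzled receptors and the LRP5 and LRP6 co-receptors, which stops the degradation of β-catenin and lets it enter the nucleus with TCF/LEF factors. Secreted Frizzled-related proteins (Sfrp) bind Wnt ligands outside the cell, and most Dickkopf proteins (Dkk) bind the LRP co-receptors. Dkk3 is a divergent member of that family that is not established as an LRP-binding Wnt antagonist, and it is listed with the antagonists here by family. In skeletal muscle, Wnt signals are known to act on myogenic commitment and on the differentiation of muscle progenitors.

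The microRNAs that set the groups apart share most of their seed, the part of a microRNA that pairs with target transcripts. Their mature sequences are shown from RefSeq (GRCm38.p6), with the seed (bases 2 to 8) in capitals. Both lie on the minus strand of chromosome X, miR-322-5p at chrX:53054306-53054327 and miR-503-5p at chrX:53054027-53054049.
miR-322-5p: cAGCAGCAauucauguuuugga
miR-503-5p: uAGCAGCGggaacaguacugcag

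Seed matches were searched on the sense strand in the longest annotated 3′UTR of each gene, as TGCTGCT for miR-322-5p and CGCTGCT for miR-503-5p. Wnt4, Dkk2, Dkk3 and Axin2 held the miR-322-5p match and none of the 10 genes held the miR-503-5p match. The sites are shown with 11 bases on each side and the match in capitals (GRCm38, transcript strand), since 2 of these 4 genes rose, 1 fell and 1 did not pass the test. They lie at chr4:137299382-137299388 (Wnt4, plus strand), chr7:112117780-112117786 (Dkk3, minus strand), chr11:108949839-108949845 and chr11:108950065-108950071 (Axin2, plus strand), and chr3:132179822-132179828 with an overlapping copy at chr3:132179825-132179831 (Dkk2, plus strand).
Wnt4: ccagctccggaTGCTGCTactctaccgtg
Dkk3: cacaagagctaTGCTGCTctgtggcctcc
Axin2 first site: cccccagtttaTGCTGCTttaaacctgga
Axin2 second site: accccccgccaTGCTGCTctgcttgtcac
Dkk2 first site: aaggctaaaccTGCTGCTgcttaagctct
Dkk2 second site: gctaaacctgcTGCTGCTtaagctcttat

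Control libraries held 78219596 to 86470394 counts and miR-322/-503 libraries 73532084 to 92157388, and about 4 counts stood for 1 read pair. Counts of the microRNA host loci were low, with 1, 7 and 2 counts of Mir322 in the control libraries against 17, 0 and 3, and 1, 1 and 2 counts of Mir503 against 6, 4 and 5, so they did not check the labels. Among 14 tested markers of myoblasts and myotubes, 9 rose and only Myog fell (edgeR, adjusted p under 0.05), where 13.2% of all tested genes rose and 15.5% fell, and their summed TPM, a level scaled for transcript length and library total, lay at 3959 to 4376 in control libraries against 5039 to 5234 with miR-322/-503. The summed fibroblast markers were lower with miR-322/-503 (4670 to 4923 TPM against 3366 to 4083, with 2 of 8 tested markers higher and 4 lower by adjusted p), as were the smooth muscle markers (7310 to 7670 against 3978 to 4109, with 1 of 6 higher and 3 lower). Osteoblast markers summed to 33.1 to 34.4 TPM against 35.4 to 40.7, and chondrocyte markers to 28.7 to 32.4 against 31.1 to 36.6, with Ibsp, Acan and Col9a1 at 0 in every library. By adjusted p, 1 of 6 tested osteoblast markers was higher and 1 lower. Of 4 tested chondrocyte markers, 1 was higher by adjusted p and 2 were called lower, with a median log2 fold change of -1.97, so the chondrocyte sum did not follow its members. Adipocyte markers summed to 11.4 to 13.1 TPM against 9.60 to 11.7 with Adipoq, Cidec, Fabp4 and Lep at 0, macrophage markers to 4.77 to 7.31 against 5.71 to 6.49 with Adgre1 at 0, and endothelial markers to 0.573 to 0.835 against 1.61 to 2.47 with Emcn at 0. By adjusted p, 1 of 2 tested adipocyte markers and 1 of 3 tested macrophage markers were lower, and 1 of 2 tested endothelial markers was higher. With so few tested markers, nothing is read from the counts of these smaller lists. The part of these shifts in the Wnt gene changes was not tested. All libraries came from derivatives of C2C12, so these sums do not show that other cell types were present. In bulk RNA, fewer cells with a marker and less RNA per cell cannot be told apart.

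A gene was called when its adjusted p was under 0.05 in edgeR's quasi-likelihood test (Benjamini-Hochberg over all tested genes) and its log2 fold change exceeded 1 in size. Of the 9 tested Wnt genes, 1 was called higher and 4 lower, where 9.87% of all tested genes were called, 4.59% higher and 5.29% lower. By adjusted p alone, 4 were higher and 4 lower, beside 28.8% of all genes in either direction (13.2% higher and 15.5% lower). The median log2 fold change was -0.11 over the 9 genes and -0.01 over all tested genes. In CPM, the groups did not overlap in 8 of the 9 genes, 4 higher and 4 lower with miR-322/-503, which was also the case for 45.1% of all tested genes (21.6% higher and 23.5% lower). The genes and the pathway lists were chosen with earlier results of these data known. Their counts beside these shares, here and below, are therefore descriptions and no test of an excess.

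**Figure D1:**
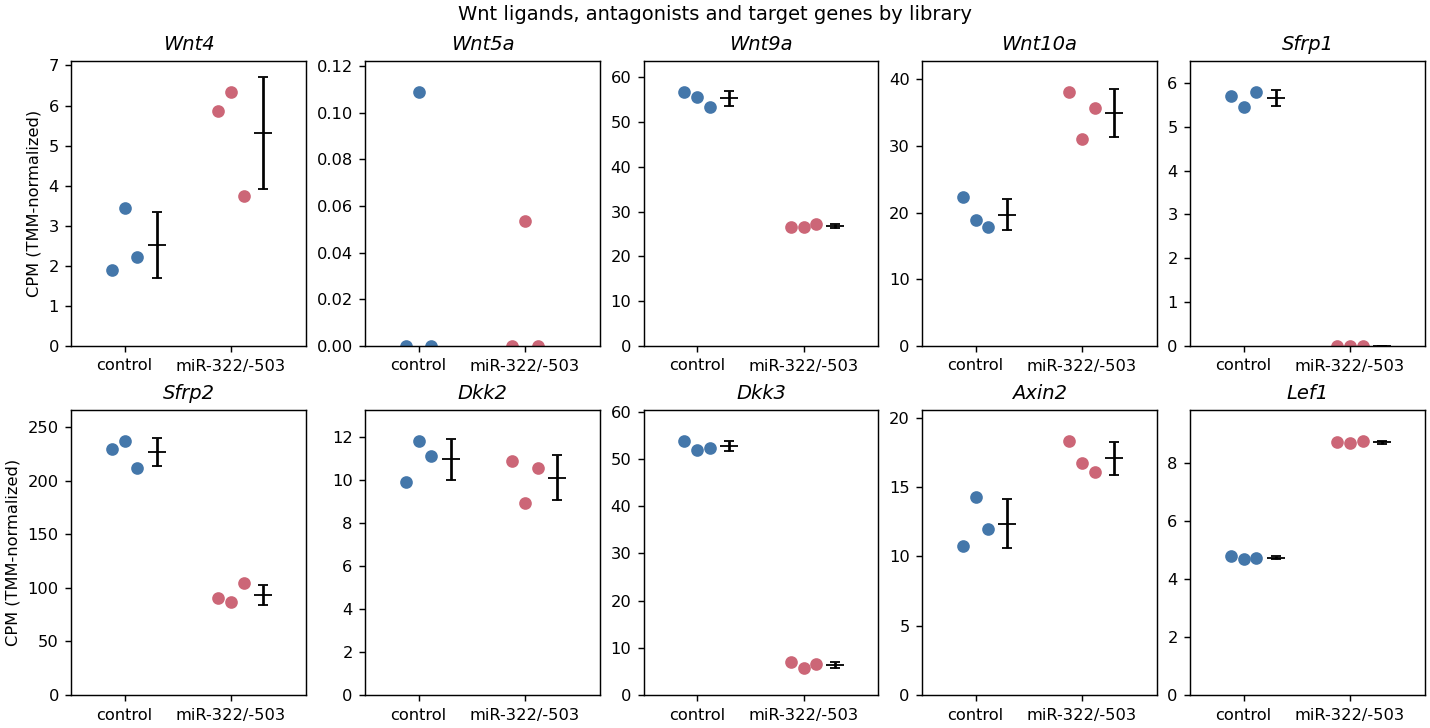
The plot gives TMM-normalized CPM (vertical axis from 0, 1 panel per gene) of the 10 Wnt genes in each library, with 1 point per library and the group mean ± SD beside the points, except for Wnt5a. Sfrp1 lies at 0 in all 3 miR-322/-503 libraries, Dkk2 overlaps between the groups, and Wnt5a has counts in 1 library of each group.

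By TPM, Sfrp2 was the most abundant of the 10 genes in the control at 222 ± 3.24 TPM (SD, n = 3). Wnt9a (31.7 ± 1.23) and Dkk3 (29.8 ± 0.881) followed with overlapping ranges, then Wnt10a (15.2 ± 1.96). Axin2 (6.53 ± 1.15) and Dkk2 (5.61 ± 0.449) also overlapped in level, and Lef1 (2.72 ± 0.138), Sfrp1 (2.45 ± 0.0888), Wnt4 (1.14 ± 0.362) and Wnt5a (0.0185) were lower, in this order. With miR-322/-503, the order of TPM levels became Sfrp2 (87.97 ± 4.88), Wnt10a (26.6 ± 2.88), Wnt9a (15.1 ± 0.375), Axin2 (8.43 ± 0.775), Lef1 (5.17 ± 0.0962), Dkk2 (5.12 ± 0.520), Dkk3 (3.58 ± 0.368), Wnt4 (2.39 ± 0.704), Wnt5a (0.00486) and Sfrp1 (0). In that group the ranges of Lef1 and Dkk2 overlapped, as did those of Wnt5a and Sfrp1 near 0.

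The most abundant ligand changed from Wnt9a to Wnt10a, while the summed ligand level stayed within the spread of the libraries. Wnt9a, a ligand known from joint formation (chr11:59306928-59333552, plus strand, GRCm38), was at 56.8, 55.7 and 53.5 CPM (counts scaled to the TMM-normalized library total) in the control libraries and at 26.5, 26.6 and 27.3 CPM with miR-322/-503. The 3 control libraries all lay above the 3 others, with little spread inside either group. The log2 fold change was -1.05 (SE 0.06, adjusted p = 2.26e-05, edgeR with Benjamini-Hochberg adjustment). It lay so near the fold cut-off that a test against a log2 fold change of 1 itself (glmTreat) gave an adjusted p of 0.870. Wnt3a, which lies beside Wnt9a on chromosome 11, had 0 counts in every library.

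Wnt10a, a ligand known for its role in teeth and skin appendages (chr1:74791516-74804179, plus strand), was at 22.4, 18.9 and 17.9 CPM in the control and at 38.2, 31.1 and 35.7 CPM with miR-322/-503. Every miR-322/-503 library was above every control library. The rise was 0.83 on the log2 scale (SE 0.12, adjusted p = 0.00168, edgeR with Benjamini-Hochberg adjustment), which is under the fold cut-off. Its neighbour on chromosome 1, Wnt6, had 10, 21 and 11 counts in the control and 63, 9 and 24 with miR-322/-503, and did not pass the test (adjusted p = 0.277, edgeR).

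Wnt4, a ligand known from kidney and gonad development (chr4:137277489-137299726, plus strand), was at 1.90, 3.45 and 2.21 CPM in the control and at 5.86, 6.35 and 3.74 CPM with miR-322/-503. The groups did not overlap, but the highest control library and the lowest miR-322/-503 library lay close together. The log2 fold change was 1.08 (SE 0.29, adjusted p = 0.0277, edgeR with Benjamini-Hochberg adjustment). The call was lost without control replicate 1 (adjusted p = 0.0829), control replicate 3 (0.0833), miR-322/-503 replicate 1 (0.0770) or miR-322/-503 replicate 2 (0.0884), with log2 fold changes between 0.91 and 1.37 when 1 library was left out. Wnt5a, the best known ligand of the β-catenin-independent branch (chr14:28504750-28527448, plus strand), had 0, 9 and 0 counts in the control and 0, 4 and 0 with miR-322/-503, at most about 2 read pairs in a library, and no fold change is given.

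Among all 19 Wnt ligands, 9 were tested, 1 was called higher (Wnt4) and 2 lower (Wnt9a and Wnt5b), where 4.59% and 5.29% of all tested genes were called. Another 5 ligands were at 0 in every library (Wnt2, Wnt3, Wnt3a, Wnt8b and Wnt9b). Wnt10b, a ligand known to restrain fat cell formation, was also abundant, at 18.7, 11.95 and 16.6 CPM in the control and 18.2, 19.003 and 17.4 CPM with miR-322/-503. These values overlapped (log2 fold change 0.21, adjusted p = 0.374, edgeR). Wnt5b, named after its values were seen, was low in every library and fell from 0.543, 0.957 and 0.663 CPM to 0.0525, 0.0667 and 0.226 CPM (about 44 read pairs against 7, 6.31-fold lower with a 95% counting interval of 2.82 to 16.6, adjusted p = 0.0155, edgeR), a call that was lost without control replicate 2 (0.0581) or miR-322/-503 replicate 2 (0.0524). Summed over the 19 ligands, the level was 69.9, 58.8 and 61.0 TPM in the control and 66.2, 61.0 and 58.3 TPM with miR-322/-503, with overlapping groups. Wnt9a took 50.3 ± 3.45% of this sum in the control and 24.5 ± 1.13% with miR-322/-503, while Wnt10a went from 24.0 ± 1.34% to 42.9 ± 2.98% (SD, n = 3).

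Of the secreted antagonists, Sfrp1, Sfrp2 and Dkk3 fell and Dkk2 overlapped between the groups. Sfrp1 (chr8:23411502-23449632, plus strand) was at 5.70, 5.45 and 5.80 CPM in the control and at 0 CPM in all 3 miR-322/-503 libraries. This corresponded to about 345 read pairs over the control libraries against 0. With a floor of 3 read pairs in each miR-322/-503 library, the level was at least 38.1-fold lower, a bound that covers counting error only (adjusted p = 1.97e-05, edgeR with Benjamini-Hochberg adjustment).

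Sfrp2 (chr3:83766321-83774316, plus strand), the most abundant member of its family, was at 230.0, 237 and 212 CPM in the control and at 90.1, 86.6 and 104 CPM with miR-322/-503. All control libraries were above all others. The log2 fold change was -1.27 (SE 0.09, adjusted p = 4.71e-05, edgeR with Benjamini-Hochberg adjustment). The Sfrp genes summed to 227 ± 3.07 TPM in the control and 92.7 ± 5.07 TPM with miR-322/-503, and Sfrp2 made up 97.7% and 94.9% of these sums.

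Another member of the family went from near absence to a low level. Sfrp5 was at 0, 0 and 0.0474 CPM in the control, which was about 1 read pair, and at 2.12, 2.31 and 2.06 CPM with miR-322/-503, or about 132 read pairs. The ratio was 131-fold, with a 95% counting interval of 23.2 to 5229 from read pairs summed over each group, which cannot be ranked against the per-library floor used for Sfrp1 (adjusted p = 0.000356, edgeR). Sfrp4 was at a mean of 2.80 CPM in the control and 2.87 CPM with miR-322/-503, and did not pass the test (log2 fold change 0.04, adjusted p = 0.908, edgeR).

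Dkk3 (chr7:112116017-112159057, minus strand), had the largest fall among the 10 genes after Sfrp1. It was at 53.9, 52.0 and 52.3 CPM in the control and at 6.96, 5.73 and 6.54 CPM with miR-322/-503. The groups lay far apart relative to their spread, with a log2 fold change of -3.04 (SE 0.09, adjusted p = 1.75e-06, edgeR with Benjamini-Hochberg adjustment). Its 3′UTR holds the miR-322-5p match shown above at base 425 of 2194.

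Dkk2 (chr3:132085292-132180304, plus strand), which binds LRP5 and LRP6, was at 9.91, 11.8 and 11.1 CPM in the control and at 10.9, 8.92 and 10.5 CPM with miR-322/-503. The groups overlapped, and the log2 fold change of -0.11 (SE 0.12) did not pass the test (adjusted p = 0.526, edgeR). Dkk1 and Dkk4 were at 0 in every library. The Dkk genes together fell from 35.4 ± 0.471 to 8.69 ± 0.885 TPM, and Dkk3 took 84.2 ± 1.44% of the family in the control but 41.1 ± 0.444% with miR-322/-503, where Dkk2 made up 58.9%.

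**Figure D2:**
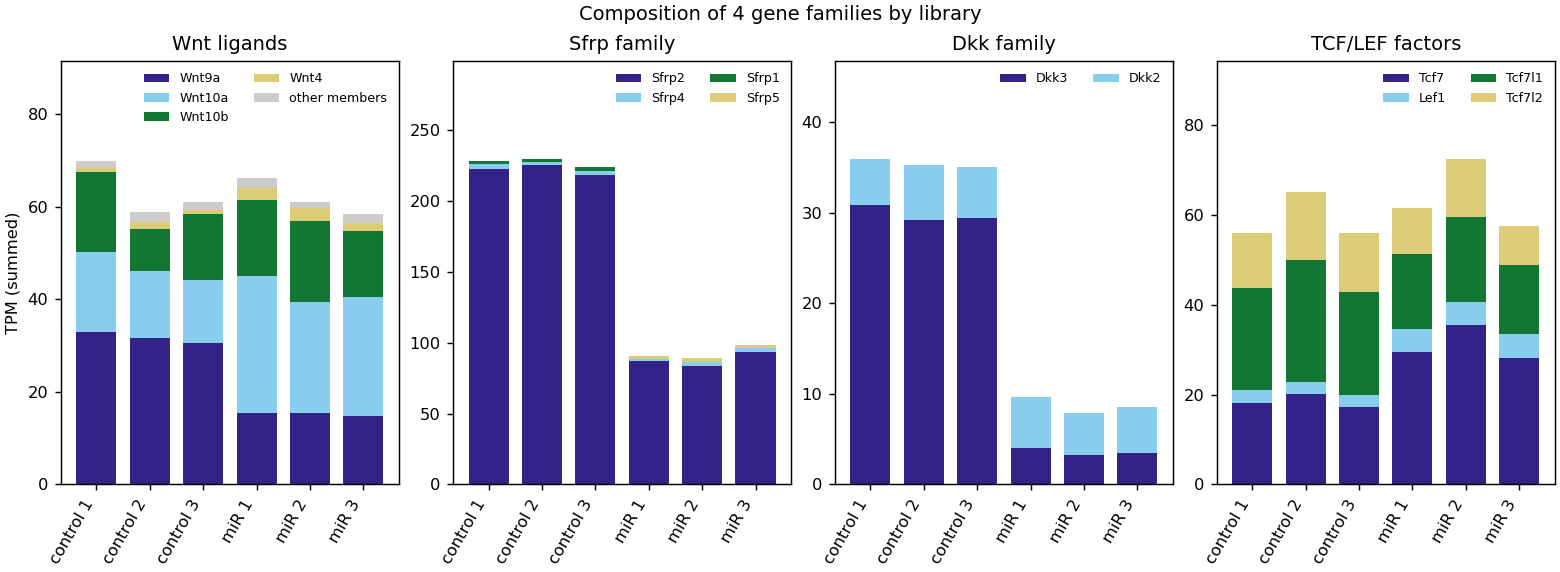
Summed TPM of the Wnt ligand, Sfrp, Dkk and TCF/LEF families in each library, stacked by gene, with control and miR-322/-503 libraries side by side. The ligand sums overlap between groups while Wnt10a takes the place of Wnt9a as the main ligand, and the Sfrp and Dkk sums fall through Sfrp2 and Dkk3.

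Over the 16 secreted antagonists considered, 8 were tested, 2 were called higher (Sfrp5 and Igfbp4) and 4 lower (Sfrp1, Sfrp2, Dkk3 and Notum), beside 4.59% and 5.29% of all tested genes. Their summed level was 265 to 273 TPM in the control libraries and 110 to 125 TPM with miR-322/-503. Igfbp4, an insulin-like growth factor binding protein that also antagonizes Wnt receptors, was at 9.35, 6.98 and 7.71 CPM in the control and at 19.4, 18.7 and 31.4 CPM with miR-322/-503 (log2 fold change 1.53, adjusted p = 0.00193, edgeR). Notum, the secreted enzyme that removes the lipid from Wnt proteins, was at 2.42, 2.85 and 1.74 CPM against 1.32, 1.20 and 0.585 CPM. Its log2 fold change of -1.17 (SE 0.34, adjusted p = 0.0403, edgeR) was lost without control replicate 1 (0.0984), control replicate 2 (0.126), miR-322/-503 replicate 2 (0.0738) or miR-322/-503 replicate 3 (0.0671).

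Genes that β-catenin is known to activate did not move together. Lef1, a DNA-binding partner of β-catenin (chr3:131110471-131224356, plus strand), was at 4.79, 4.69 and 4.71 CPM in the control and at 8.72, 8.68 and 8.78 CPM with miR-322/-503. The libraries of each group were nearly equal and the groups far apart, with a log2 fold change of 0.88 (SE 0.10, adjusted p = 0.000505, edgeR with Benjamini-Hochberg adjustment). Lef1os1, an antisense gene overlapping Lef1, had 32, 8 and 38 counts against 20, 116 and 34, and without known strandedness its reads cannot be told apart from those of Lef1.

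Axin2, a scaffold of the β-catenin destruction complex that is widely read as a target of the pathway (chr11:108920349-108950783, plus strand), was at 10.8, 14.3 and 11.997 CPM in the control and at 18.3, 16.7 and 16.1 CPM with miR-322/-503. The groups did not overlap in CPM, and the rise was 0.47 on the log2 scale (SE 0.12, adjusted p = 0.0262, edgeR with Benjamini-Hochberg adjustment). In TPM they overlapped, with 7.84 in control replicate 2 and 7.63 in miR-322/-503 replicate 3. The adjusted p passed 0.05 without control replicate 1 (0.0686), control replicate 3 (0.0755), miR-322/-503 replicate 1 (0.0788) or miR-322/-503 replicate 2 (0.0645). Limma on log2(TPM + 1) gave an adjusted p of 0.141. The 3′UTR of Axin2 holds the pair of miR-322-5p matches shown above, at bases 444 and 670 of 1388.

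Of 24 β-catenin target genes considered, 19 were tested, 6 rose by adjusted p (Tcf7, Lef1, Axin2, Nkd2, Cd44 and Prickle1) and 8 fell (Notum, Lgr5, Znrf3, Nkd1, Ccn4, Ccnd1, Bambi and Fst), beside 13.2% and 15.5% of all tested genes. Among them, 1 was called higher and 5 lower, beside 4.59% and 5.29% of all tested genes, and Sp5, Dkk1 and Gbx2 were at 0 in every library. The median log2 fold change of the tested targets was -0.30. The related genes Nkd1 and Nkd2 moved in opposite directions, and Nkd2 rose by 0.23 on the log2 scale (adjusted p = 0.0349, edgeR). Znrf3, a ubiquitin ligase that removes Frizzled receptors from the cell surface, was at 32.3, 37.8 and 35.7 CPM in the control and at 18.0, 19.98 and 19.4 CPM with miR-322/-503 (log2 fold change -0.88, SE 0.09, adjusted p = 0.000317, edgeR). It was named after its values were seen.

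Nkd1, an inhibitor that binds Dishevelled, was at 0.439, 1.09 and 1.58 CPM in the control and at 0.0420, 0.0533 and 0.160 CPM with miR-322/-503, or about 64 read pairs against 5. The ratio was 12.9-fold lower, with a 95% counting interval of 5.23 to 40.9 (adjusted p = 0.00665, edgeR). All 20 tested genes nearest to Nkd1 on chromosome 8 also had a log2 fold change below 0, with a median of -0.58, and the part of this regional shift in the fall of Nkd1 was not tested. Lgr5, an R-spondin receptor, was at 3.04, 1.71 and 3.23 CPM in the control and at 0.640, 0.600 and 1.46 CPM with miR-322/-503. Its log2 fold change of -1.56 (SE 0.42, adjusted p = 0.0277, edgeR) lost the call without control replicate 1 (0.0843), control replicate 3 (0.0795), miR-322/-503 replicate 1 (0.0875) or miR-322/-503 replicate 2 (0.0837).

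Several other targets were genes also known outside the Wnt pathway. Fst, which encodes the activin and myostatin antagonist follistatin, fell from 83.2 ± 5.12 to 15.9 ± 0.467 CPM (SD, n = 3), with a log2 fold change of -2.38 (SE 0.07, adjusted p = 1.31e-06, edgeR with Benjamini-Hochberg adjustment). Bambi, a pseudoreceptor of the TGF-β family, was at 1.76, 1.24 and 1.01 CPM in the control and at 0.0944, 0.280 and 0.0532 CPM with miR-322/-503, or about 81 read pairs against 8 (adjusted p = 0.00529, edgeR). Cd44, a hyaluronan receptor and the most abundant of the targets that rose, went from 300.3 ± 8.57 to 544 ± 31.3 CPM (log2 fold change 0.86, adjusted p = 6.55e-05, edgeR). Ccnd1, the cell cycle gene cyclin D1, fell from a mean of 212 to 136 CPM (log2 fold change -0.64, adjusted p = 0.00117, edgeR).

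**Figure D3:**
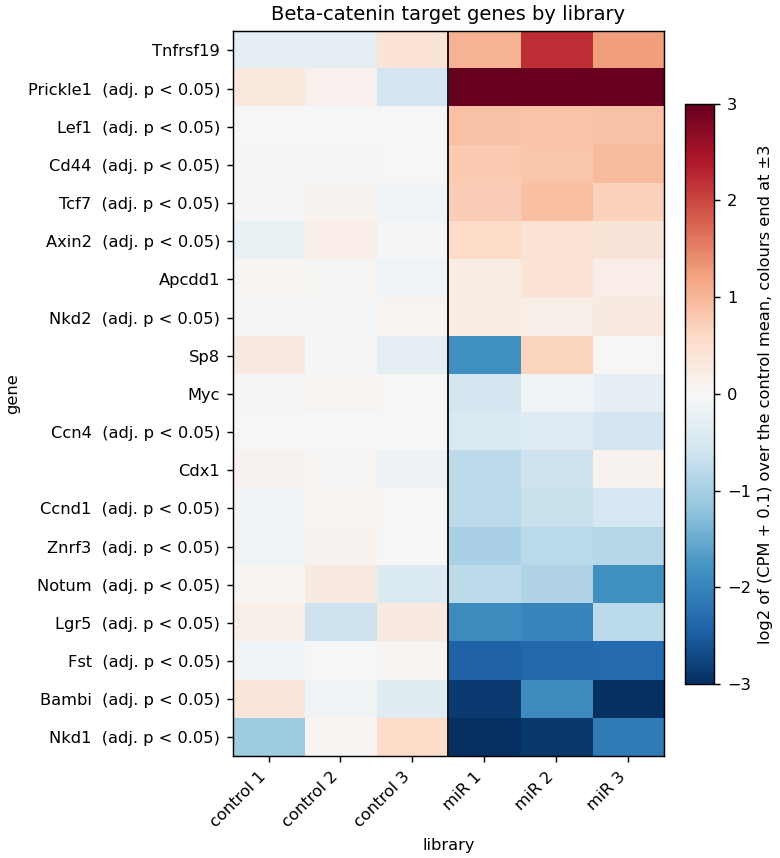
Heat map of the tested β-catenin target genes (rows, ordered by log2 fold change) in each library (columns), coloured by the log2 ratio of CPM + 0.1 to the control mean, with red above and blue below it and colours ending at ±3. Genes past an adjusted p of 0.05 are marked, and Axin2, Lef1 and Tcf7 are red with miR-322/-503 while Nkd1, Notum, Lgr5 and Znrf3 are blue.

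Within the TCF/LEF family, the balance moved from Tcf7l1 to Tcf7 and Lef1. Tcf7, which encodes TCF1, was at 20.1, 22.3 and 19.4 CPM in the control and at 34.3, 38.8 and 33.4 CPM with miR-322/-503 (log2 fold change 0.79, SE 0.09, adjusted p = 0.000726, edgeR with Benjamini-Hochberg adjustment). Tcf7l1, which encodes TCF3, a factor known mainly as a repressor, was at 31.5, 39.8 and 34.4 CPM against 24.0, 27.8 and 24.3 CPM. Its groups did not overlap (log2 fold change -0.47, SE 0.11, adjusted p = 0.0152, edgeR), but the adjusted p rose to 0.0508 without miR-322/-503 replicate 1 and to 0.0544 without miR-322/-503 replicate 3. Tcf7l2, at 15.9, 20.2 and 18.1 CPM against 12.6, 16.6 and 11.8 CPM, overlapped between the groups (log2 fold change -0.40, SE 0.15, adjusted p = 0.0923, edgeR). It passed the test without miR-322/-503 replicate 2 (adjusted p = 0.0267) and with a replicate block (0.0313).

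The sum of Tcf7 and Lef1 was 21.2 ± 1.48 TPM in the control and 36.2 ± 3.86 TPM with miR-322/-503, and that of Tcf7l1 and Tcf7l2 was 37.8 ± 4.02 and 27.6 ± 3.96 TPM (SD, n = 3). The summed level of all 4 factors was 59.0 ± 5.33 and 63.8 ± 7.77 TPM. Tcf7 made up 31.4 ± 0.948% of the family in the control and 48.6 ± 0.560% with miR-322/-503.

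Among the 16 TCF/LEF factors and cofactors, all of which were tested, 3 rose by adjusted p (Tcf7, Lef1 and Tle1) and 5 fell (Tcf7l1, Bcl9l, Tle2, Tle4 and Ctnnbip1), beside 13.2% and 15.5% of all tested genes. Bcl9l, a coactivator that links β-catenin to Pygopus proteins, fell from 253 ± 15.2 to 123 ± 18.4 CPM (log2 fold change -1.04, adjusted p = 0.000462, edgeR). Tested genes of chromosome 9, where Bcl9l lies, had a median of -0.27 on the same scale. Tle4, a Groucho corepressor, fell from 2.40 ± 0.416 to 0.460 ± 0.124 CPM (log2 fold change -2.38, adjusted p = 0.000714, edgeR). Ctnnb1, which encodes β-catenin itself, was at 404, 391 and 367 CPM in the control and at 384, 367 and 340 CPM with miR-322/-503. These values overlapped (log2 fold change -0.09, SE 0.07, adjusted p = 0.373, edgeR), and its protein was not measured here.

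The Frizzled receptors, their co-receptors and the cytoplasmic components were also compared, in a receptor list that holds Ror1, Ror2, Ryk and Ptk7 as well. Of 15 tested receptors, 2 rose by adjusted p (Fzd7 and Ror2) and 10 fell (Fzd1, Fzd4, Fzd5, Fzd8, Fzd9, Lrp5, Lrp6, Ror1, Ryk and Ptk7), where 13.2% and 15.5% of all tested genes did so, with a median log2 fold change of -0.41 and a summed level of 375 to 384 TPM against 270 to 300 TPM. Ryk, the most abundant of these receptors, fell from 159 ± 2.09 to 104 ± 5.03 TPM (log2 fold change -0.60, adjusted p = 0.000150, edgeR). Ptk7 fell from a mean of 24.3 to 13.6 TPM. The fall of the sum is therefore not one of Frizzled and LRP receptors alone. Fzd4, which also binds Norrin, fell from 21.8 ± 0.0354 to 10.1 ± 1.21 CPM (log2 fold change -1.11, adjusted p = 0.000239, edgeR). Of 20 cytoplasmic components, 2 rose by adjusted p (Gsk3b and Csnk1e, named after their values were seen), 1 fell (Dact3, likewise) and 17 did not pass, with a median log2 fold change of 0.03. Of all 18140 tested genes, 12922 did not pass either. Gsk3b, the kinase that marks β-catenin for degradation, was at 53.2, 58.1 and 78.3 CPM in the control and at 139, 80.6 and 146 CPM with miR-322/-503 (log2 fold change 0.95, adjusted p = 0.0224, edgeR). The adjusted p passed 0.05 without control replicate 1 (0.0840), control replicate 2 (0.0795), miR-322/-503 replicate 1 (0.0732) or miR-322/-503 replicate 3 (0.0736). The 8 pathway lists together held 142 genes, of which 115 were tested, 8 were called higher and 20 lower, beside 4.59% and 5.29% of all tested genes. By adjusted p alone 21 were higher and 40 lower, beside 13.2% and 15.5% of all tested genes.

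**Figure D4:**
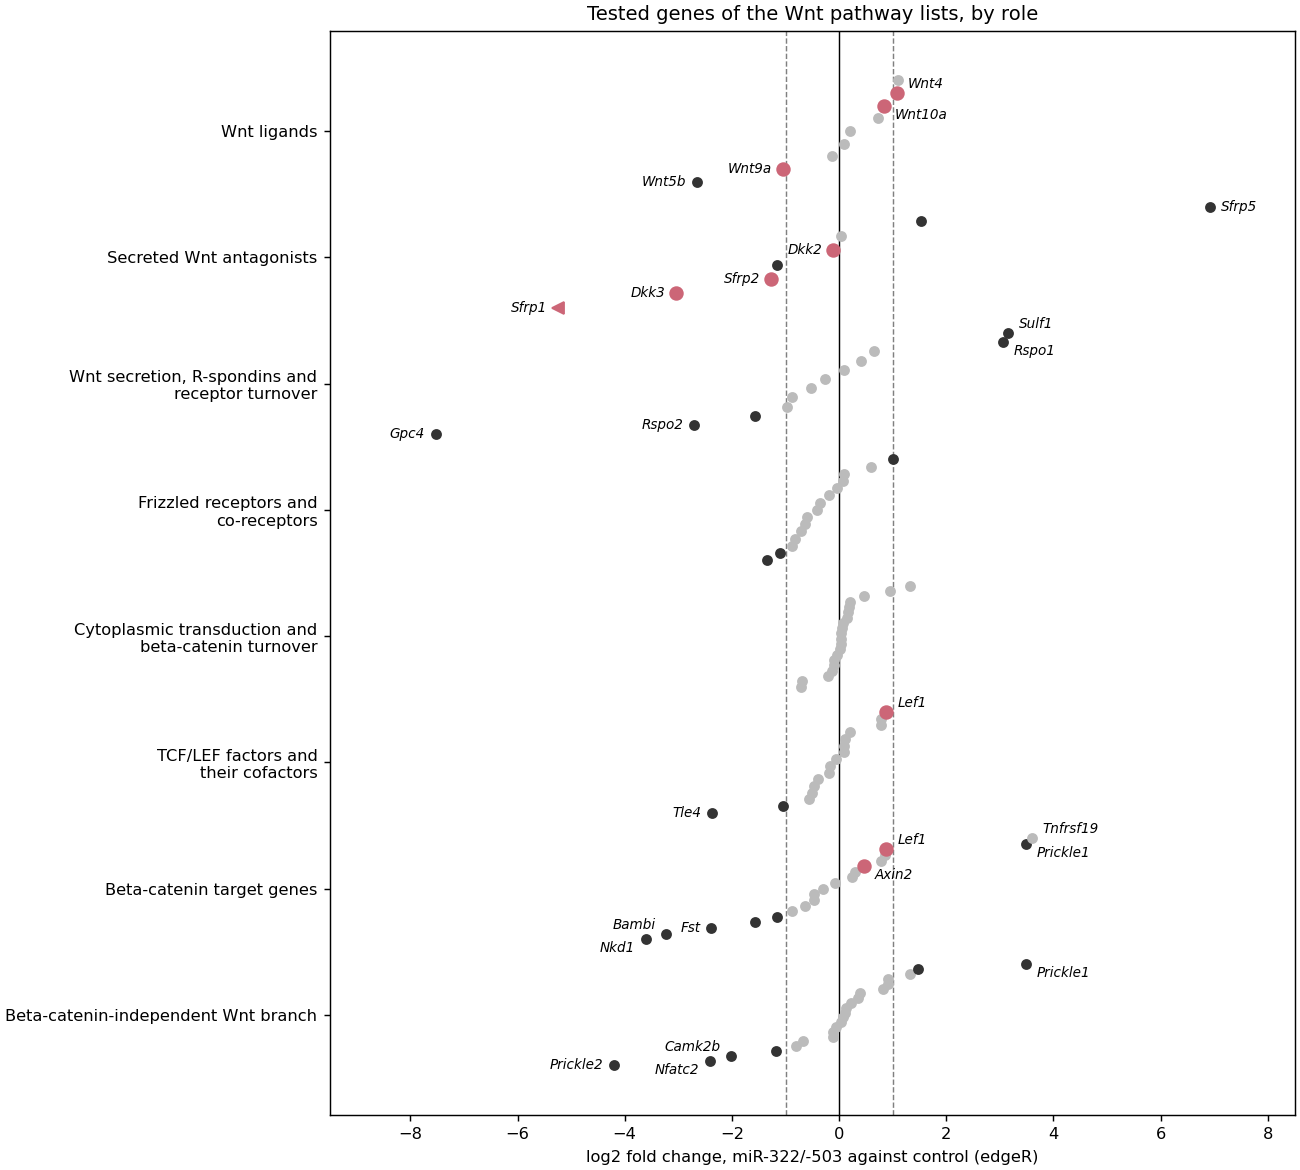
Log2 fold change (miR-322/-503 against control) of each tested gene of the 8 Wnt pathway lists, in 1 row per list, with the 9 tested Wnt genes in red, other called genes in dark grey, the rest in light grey and dashed lines at a log2 fold change of 1 and -1. The triangle for Sfrp1 marks its bound, and no cytoplasmic component is called.

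The seed matches did not divide the Wnt genes by direction. Of the 4 genes with a miR-322-5p match, Wnt4 and Axin2 rose, Dkk3 fell and Dkk2 overlapped between the groups. The called falls of Wnt9a, Sfrp1 and Sfrp2 were in genes without a 7-base match. A match to either microRNA was present in 4 of the 10 genes, beside 27.2% of 13416 tested genes with an annotated 3′UTR and 31.8% of the 8993 whose 3′UTR was as long as those of the 10 genes (559 to 4508 bases). Over the 13416 genes, the median log2 fold change was 0.01 with a match and -0.02 without. The 6-base match GCTGCT, which every 7-base match contains, was also present in Sfrp1, giving 5 of the 10 genes beside 45.2% of the 13416 genes and 53.7% of the 8993 genes in the same length range. These matches describe letters in annotated transcripts and not sites shown to be bound.

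The TCF/LEF motif CTTTGAT was searched on both strands of the RefSeq promoters (GRCm38, 250 bases before to 50 after the start), where 6 of the 10 genes had an entry. It was present in 0 of their 9 promoters and in 3.73% of all 32851 promoters. At so low a share 0 of 9 is the usual outcome, and several of the 9 were starts of Lef1. Nothing is therefore read from this absence.

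Changes of the Wnt genes were also set beside those of the genes around them on the chromosome. The 20 tested genes nearest to Wnt4 had a median log2 fold change of -0.51, with 17 of them below 0, so that Wnt4 rose among genes that were mostly lower. For the other 9 Wnt genes, the median of the nearest 20 lay between -0.07 and 0.07.

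**Figure D5:**
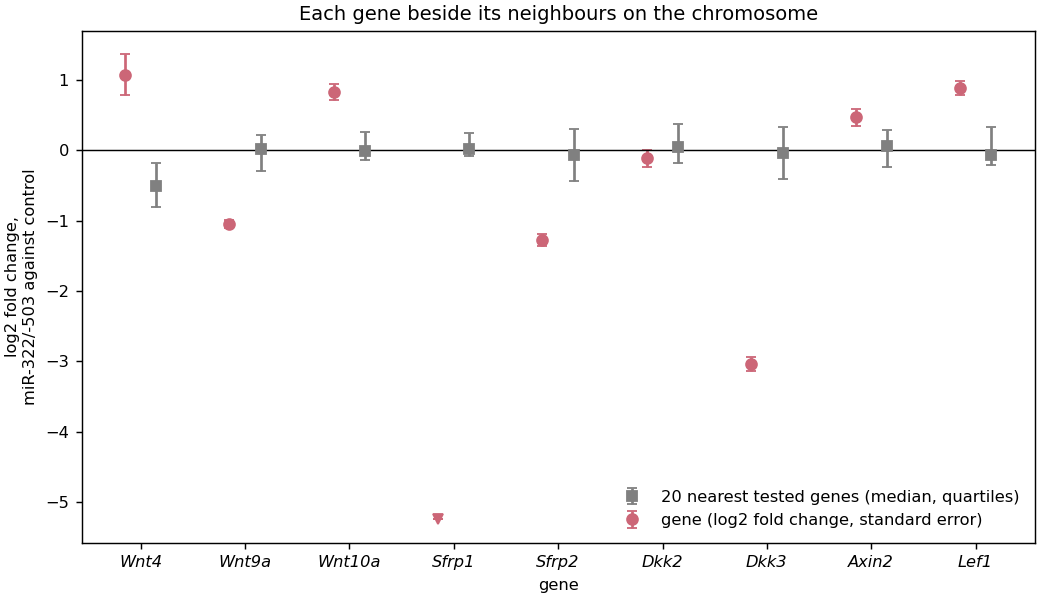
Log2 fold change (vertical axis) of each of the 9 tested Wnt genes with its standard error, and the median and quartiles of its 20 nearest tested genes on the same chromosome. The triangle for Sfrp1 marks its bound. Only the neighbours of Wnt4 are centred away from 0, at -0.51.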

How the data were processed

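RNA-seq of 3 control and 3 miR-322/-503 libraries was analysed, with groups taken from the genotype labels. Per the labels and the methods, the authors used Trim Galore for trimming, HISAT2 for alignment to GRCm38 and StringTie for quantification. Versions, annotation and strandedness are not given in the sources used here. They deposited whole-number counts per gene without normalization, and, for each library, coverage (a per-base signal) with FPKM and TPM values. A count stood for 75.0 covered bases and low genes peaked at 300 bases, hence about 4 counts per read pair. TPM of genes listed more than once was summed. Coverage was used for this scale only and FPKM was not used.

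Counts were tested as deposited with edgeR 4.0.16 in R 4.3.3 (filterByExpr, TMM, glmQLFit, glmQLFTest, Benjamini-Hochberg). TMM factors lay between 0.977 and 1.03. Standard errors were the log2 fold change divided by the square root of F. Replicates differed beyond sampling noise (chi-square per degree of freedom 14.8 to 21.3). Bounds used a floor of 3 read pairs (12 counts) per library, and such intervals and floors cover counting error only. Gene positions were those deposited with the libraries, and 3′UTRs came from GENCODE M21, in which 55154 identifiers matched. Named genes were the 10 Wnt genes, up to 4 other called genes with the largest change in each pathway list at a mean of at least 1 CPM, the most abundant gene of each list, and Ctnnb1, Tcf7, Tcf7l1, Tcf7l2 and Nkd1. Any other gene was named after its values were seen. The genes and lists were chosen with earlier results of these data known. Alternatives were DESeq2 1.42.0, limma 3.58.1 on log2(TPM + 1) and log2(TPM + 0.1), glmTreat, other normalizations and filters, a replicate block, and leaving out each library. The tests were tried on simulated data.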

Additional observations from a re-analysis of the deposited data

How the results depend on the processing

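Sfrp4, which did not pass the test, changed direction with limma on log2(TPM + 1) (-0.10) and on log2(TPM + 0.1) (-0.15), and its log2 fold change ran from -0.10 to 0.15 when 1 library was left out. No other gene among those recomputed, which were the genes of the naming rule with Wnt10b, Wnt5b, Znrf3, Ccnd1, Gsk3b and Rspo1, changed direction. The remaining genes named in the text were not recomputed. With glmTreat, which tests against the fold cut-off itself, 396 genes were higher and 530 lower in place of 832 and 959. Of the 10 Wnt genes it left 0 higher (also 0 by adjusted p alone) and 3 lower, and of the pathway lists 4 higher and 12 lower. With limma on log2(TPM + 1), which compresses low genes, 391 genes were higher and 564 lower, with 0 of the Wnt genes higher and, over the pathway lists, 5 higher and 8 lower. With log2(TPM + 0.1), 0 Wnt genes were called higher and 2 were higher by adjusted p alone, Wnt4 having an adjusted p of 0.0544. Leaving out 1 library gave 0 to 1 Wnt gene called higher, 2 to 4 higher by adjusted p alone and 4 lower. Requiring 10 counts in every library removed Sfrp1, leaving 3 Wnt genes lower. Over single named genes, 59 values lost the threshold, 2 gained it and 3 changed sign, and 616 did none of these.

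Same-numbered libraries deviated together with correlations of 0.241, 0.137 and 0.0960, not all over 0.1, and the labels do not tie the numbers to shared cultures. The replicate block gave 747 genes higher and 893 lower, with 1 Wnt gene higher and 4 lower, 7 pathway genes higher and 19 lower, Tcf7l2 passing the test (adjusted p = 0.0313) and Rspo1 no longer passing it (0.0531). Wnt5a was too low for a comparison at this depth, and levels under about 0.126 to 0.160 CPM per library lie below the floor of 3 read pairs.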

Other observations

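Genes that shape Wnt reception outside the cell changed in both directions. Sulf1, an enzyme that removes sulfate groups from heparan sulfate at the cell surface, was at 29.3, 30.1 and 32.3 CPM in the control and at 251, 274 and 287 CPM with miR-322/-503 (log2 fold change 3.15, SE 0.08, adjusted p = 7.38e-07, edgeR with Benjamini-Hochberg adjustment). Gpc4, a heparan sulfate proteoglycan of the glypican family, was at 5.27, 3.77 and 3.21 CPM in the control and at 0, 0.0667 and 0 CPM with miR-322/-503, or about 248 read pairs against 1. The ratio was 249-fold lower, with a 95% counting interval of 44.3 to 9879 from read pairs summed over each group, which cannot be ranked against the bound given for Sfrp1. Rspo2, an R-spondin ligand that strengthens Wnt signals, fell from 2.20 ± 0.572 to 0.335 ± 0.0780 CPM (SD, n = 3, log2 fold change -2.70, adjusted p = 0.000585, edgeR), and 17 of the 20 genes nearest to it on chromosome 15 were also below 0. Rspo1, another R-spondin ligand, named after its values were seen, was called higher, from 0.181, 0.0606 and 0 CPM to 0.682, 0.693 and 0.638 CPM (adjusted p = 0.0368, edgeR). This was about 5 read pairs against 41, a ratio of 8.16-fold with a 95% counting interval of 3.23 to 26.5. Its call was lost without control replicate 2 (0.115), miR-322/-503 replicate 1 (0.0864), miR-322/-503 replicate 2 (0.0900) or miR-322/-503 replicate 3 (0.0857). Wls, the transporter that carries Wnt proteins to the cell surface and the most abundant gene of this list, did not pass the test (0.09, adjusted p = 0.491, edgeR). Of the 12 tested genes of Wnt secretion, R-spondins and receptor turnover, 3 rose by adjusted p and 7 fell, beside 13.2% and 15.5% of all tested genes.

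In the β-catenin-independent branch, the related planar polarity genes Prickle1 and Prickle2 moved in opposite directions. Prickle1 was at 0.724, 0.630 and 0.343 CPM in the control and at 6.65, 6.53 and 5.76 CPM with miR-322/-503 (log2 fold change 3.48, SE 0.27, adjusted p = 9.40e-05, edgeR). Prickle2 was at 26.0, 28.9 and 28.1 CPM against 1.61, 1.73 and 1.18 CPM (log2 fold change -4.20, SE 0.16, adjusted p = 3.55e-06, edgeR). The groups of both genes lay far apart relative to their spread. Of 22 tested genes of this branch, 2 were called higher (Prickle1 and Daam2, the latter named after its values were seen) and 4 lower (Prickle2, Camk2b, Nfatc2 and Nfatc4, the last likewise), beside 4.59% and 5.29% of all tested genes. Ror2, a receptor of this branch, was at 0.762, 0.533 and 0.829 CPM in the control and at 1.27, 1.36 and 1.66 CPM with miR-322/-503. Its log2 fold change of 1.01 (adjusted p = 0.0259, edgeR) was lost without control replicate 1 (0.0598), control replicate 2 (0.0744), miR-322/-503 replicate 2 (0.0575) or miR-322/-503 replicate 3 (0.0859).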
